A study of Mus musculus with 13 samples.

Results

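Epithelial keratins were followed through the livers of mice with bile duct ligation (BDL), a surgical model of cholestasis in which bile cannot leave the liver. The 6 keratin genes were Krt7, Krt8, Krt18, Krt19, Krt20 and Krt23, matched by their Entrez identifiers among 23785 genes, and they were chosen from the results of these same mice, so their differences between groups are given with no p-value, and where they are said to be past a threshold that is a description from which nothing is read. Liver RNA came from 13 male C57 mice of 3 months. The no BDL group (5 mice) was labelled as not treated, with no sham surgery or oligonucleotide stated. The miR-Ctrl BDL group (4 mice) had a week of BDL with intravenous injections of a control oligonucleotide, and the anti-miR-873-5p BDL group (4 mice) had the same surgery with an oligonucleotide that blocks miR-873-5p, so that every ligated mouse also carried an oligonucleotide. The comparisons of each BDL group with no BDL share the same 5 no BDL mice, and ligation and injection cannot be told apart in them.

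Keratins are the intermediate filaments of epithelial cells. Each filament is built from pairs of an acidic type I keratin (here Krt18, Krt19, Krt20 and Krt23) and a basic type II keratin (here Krt7 and Krt8). Hepatocytes of the adult liver contain K8 and K18 alone, the bile duct epithelium adds K7 and K19, and the mesothelium that covers the liver also makes K7, K8, K18 and K19. In chronic cholestatic disease bile ducts multiply, in what is called the ductular reaction, and K7 and K19 are the stains by which pathologists see it, while K8 and K18 accumulate in stressed hepatocytes and form the inclusions known as Mallory-Denk bodies.

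The genes lie in the 2 keratin clusters of the mouse genome, and in the RefSeq annotation of GRCm38 Krt7 (Entrez gene 110310) spans chromosome 15 from 101412403 to 101427806, Krt8 (16691) from 101996711 to 102004342 and Krt18 (16668) from 102028216 to 102032026. On chromosome 11, Krt20 (66809) spans 99428385 to 99438153, Krt23 (94179) 99477973 to 99493120 and Krt19 (16669) 100140810 to 100145926. Krt18 is thus a type I gene that lies beside its type II partner Krt8, and not with the other type I genes. The 200 bases upstream of the start site are shown for this neighbouring pair, which had the highest counts, and for Krt7 and Krt23, whose levels moved differently. Sequences are those of RefSeq on GRCm38, written 5′ to 3′ on the strand of the gene, and capitals mark the GC box GGGCGG on either strand. The windows are chr15:102004343-102004542 (minus strand) for Krt8, chr15:102028016-102028215 (plus) for Krt18, chr15:101412203-101412402 (plus) for Krt7 and chr11:99493121-99493320 (minus) for Krt23.
Krt8: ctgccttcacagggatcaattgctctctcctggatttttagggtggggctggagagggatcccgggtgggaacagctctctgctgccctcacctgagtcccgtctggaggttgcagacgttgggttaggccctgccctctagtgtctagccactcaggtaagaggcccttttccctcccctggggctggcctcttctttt
Krt18: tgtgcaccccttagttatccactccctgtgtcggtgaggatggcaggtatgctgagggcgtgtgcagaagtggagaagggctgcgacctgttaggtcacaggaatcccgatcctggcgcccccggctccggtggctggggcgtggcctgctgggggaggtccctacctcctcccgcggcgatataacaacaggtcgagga
Krt7: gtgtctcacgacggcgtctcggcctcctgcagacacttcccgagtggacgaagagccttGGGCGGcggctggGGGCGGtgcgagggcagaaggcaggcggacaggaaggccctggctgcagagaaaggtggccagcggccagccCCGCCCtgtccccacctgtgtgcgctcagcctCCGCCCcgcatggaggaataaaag
Krt23: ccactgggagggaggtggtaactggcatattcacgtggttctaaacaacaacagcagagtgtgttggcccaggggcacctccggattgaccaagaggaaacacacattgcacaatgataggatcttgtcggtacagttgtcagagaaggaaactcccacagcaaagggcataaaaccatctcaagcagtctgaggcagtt
Krt7 held 4 GC boxes, the nearest beginning 24 bases before the start, and the windows of Krt8, Krt18 and Krt23 held none. A GC box was found in 31.0% of the 32851 mouse promoters searched in the same window. A TATA box, searched as TATAAA on both strands, was in none of these 4 windows and in 9.96% of promoters. The window of Krt20 held 1 that begins 29 bases before its listed start. That window is not printed because the bases after this start were found in no annotated transcript of the gene. An AP-1 site, TGANTCA on either strand, was in none of the 4 and in 5.48% of promoters. A promoter entry for Krt19 was not used here.

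The microRNA that the oligonucleotide blocks is shown because its seed can be looked for in the keratin transcripts. Its mature sequence in RefSeq lies at chr4:36668556-36668576 on the minus strand, and capitals mark the seed.
mmu-miR-873a-5p: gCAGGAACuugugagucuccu
The complement of the seed, GTTCCTG, occurred once in the 3′ UTR of Krt7, at base 672 of 2648, and not in those of Krt8, Krt18, Krt19, Krt20 or Krt23, read from the longest GENCODE M21 transcript. It occurred in 13.9% of the 3′ UTRs of 20922 genes, and the Krt7 stretch is printed with the site in capitals.
Krt7 site: gttgaggaaggtttGTTCCTGg

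The depth was 12185333 to 19689037 gene-assigned reads per mouse. The authors deposited 1 table per comparison, and that of the BDL groups against each other holds 3 mice per group, and lacks mouse 3 of miR-Ctrl BDL and mouse 2 of anti-miR-873-5p BDL. The methods say that outlying samples were removed on the basis of clustering and principal components, and do not name them. Levels of single mice are given as normalized counts, which are CPM values after TMM scaling of all 13 mice together, and log2 fold changes with their standard errors (SE) are from the edgeR fit of each table. A gene is called past the threshold at a Benjamini-Hochberg adjusted p of 0.05 in edgeR's quasi-likelihood test over all genes tested. The liver markers were present as the labels say, since Alb, the serum albumin gene of hepatocytes, had 30518 to 89535 normalized counts in all mice. In bulk tissue, more cells of a type and more RNA per cell cannot be told apart.

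Krt8 and Krt18, the filament pair of hepatocytes, were the highest of the 6 keratins in every group and were higher in all ligated mice than in any mouse without BDL. Krt8 was at 257, 216.5, 235, 258 and 260 normalized counts in the no BDL mice, at 1424, 1531, 1436 and 1002 in miR-Ctrl BDL mice 1 to 4, and at 678, 608, 1054 and 688 in anti-miR-873-5p BDL mice 1 to 4. Neither BDL group overlapped no BDL, and between the BDL groups only anti-miR-873-5p mouse 3 reached above the lowest miR-Ctrl mouse. The fold changes of Krt8 were 5.56 in miR-Ctrl BDL (log2 2.47, SE 0.16) and 3.14 in anti-miR-873-5p BDL (log2 1.65, SE 0.19) over no BDL.

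Krt18, the type I partner, was at 187, 177, 181, 181 and 239 normalized counts without BDL, at 1006, 1077, 1185 and 773 in miR-Ctrl BDL and at 487, 497, 775 and 529 in anti-miR-873-5p BDL. The order of the mice was close to that of Krt8, with miR-Ctrl mouse 4 lowest and anti-miR-873-5p mouse 3 highest in their groups. The fold change over no BDL was 5.29 in miR-Ctrl BDL (log2 2.40, SE 0.16) and 3.01 in anti-miR-873-5p BDL (log2 1.59, SE 0.18).

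**Figure D1:**
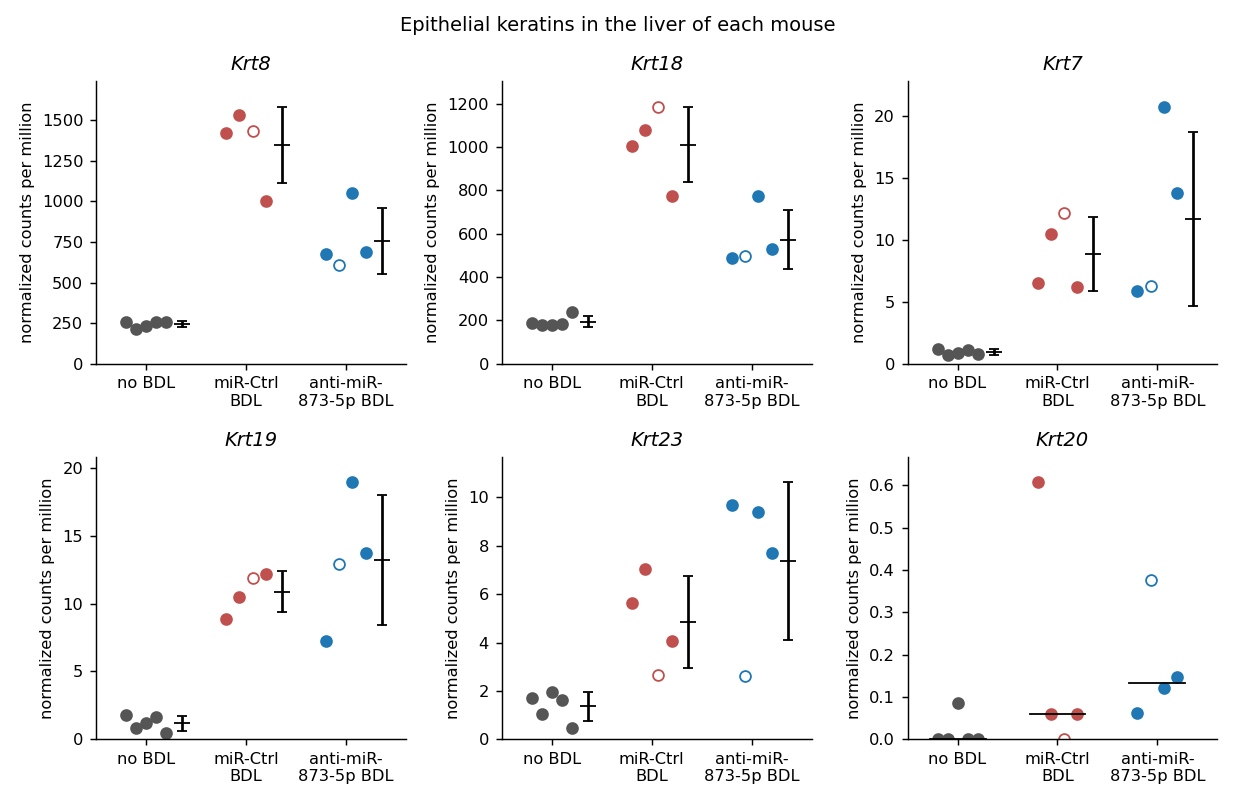
Normalized counts (CPM) of each keratin (y axes, linear, from 0) in each mouse of the 3 groups (x axes). Points are mice, open points are the ligated mice that are not in the table of the BDL groups against each other, bars are the mean ± SD of the points, and lines in the Krt20 panel are medians. The 8 ligated mice lie above the no BDL mice for all but Krt20. Krt8 and Krt18 are mostly lower in anti-miR-873-5p BDL than in miR-Ctrl BDL, and Krt7, Krt19 and Krt23 are not.

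Between the BDL groups, Krt8 had a log2 fold change of -0.71 (SE 0.26) and Krt18 of -0.67 (SE 0.24) in anti-miR-873-5p BDL relative to miR-Ctrl BDL, with 3 mice per group. In these mice Krt8 was at 807 ± 215 (SD, n = 3) normalized counts with anti-miR-873-5p and at 1319 ± 280 (SD, n = 3) with miR-Ctrl, and Krt18 at 597 ± 156 (SD, n = 3) and 952 ± 159 (SD, n = 3). Both genes overlapped between the groups through anti-miR-873-5p mouse 3, whose 775 normalized counts of Krt18 lay just above the 773 of miR-Ctrl mouse 4. Neither was past the threshold, as was none of the 13746 genes tested there (0.0% called by edgeR, with 863 genes at an unadjusted p under 0.05, and 31 called by DESeq2, no keratin among them). With that mouse left out the log2 differences were -0.95 for Krt8 and -0.91 for Krt18, and with all 4 mice of each group they were -0.83 and -0.81.

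The pair kept nearly the same proportion in every mouse. Per kilobase of transcript, Krt8 was 0.798 to 1.04 times Krt18 without BDL, 0.889 to 1.04 times in miR-Ctrl BDL and 0.897 to 1.02 times in anti-miR-873-5p BDL. The range of this ratio in the 3 groups overlapped, while the pair was several times higher in the ligated mice than without BDL. The sum of all 6 keratins per kilobase was 235 to 300 normalized counts without BDL, 1062 to 1570 in miR-Ctrl BDL and 668 to 1101 in anti-miR-873-5p BDL, and Krt8 and Krt18 made up 97.7% or more of it in every mouse. Of the 50-base windows of Krt8 transcripts, 26.9% also occur in the pseudogene Krt8-ps, so the level of Krt8 depends on how such reads were counted, which is not given in the sources used here. For the other keratins the share was at most 0.72%.

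Krt7 and Krt19, the keratins of bile ducts, had the largest fold changes of the 5 tested keratins over no BDL, from very low levels. Krt7, the type II keratin of the pair, had 7 to 14 reads per mouse without BDL, which is 1.21, 0.666, 0.852, 1.15 and 0.795 normalized counts. It was at 6.56, 10.5, 12.2 and 6.17 in miR-Ctrl BDL and at 5.91, 6.26, 20.8 and 13.8 in anti-miR-873-5p BDL. All ligated mice were above all mice without BDL, and the anti-miR-873-5p mice spanned the whole range of the miR-Ctrl mice. Krt7 was 9.46-fold higher in miR-Ctrl BDL (log2 3.24, SE 0.28) and 12.7-fold higher in anti-miR-873-5p BDL (log2 3.66, SE 0.43) than without BDL.

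Krt19, the type I keratin of bile ducts, was at 1.81, 0.856, 1.19, 1.64 and 0.477 normalized counts without BDL. It was at 8.87, 10.5, 11.9 and 12.2 in miR-Ctrl BDL and at 7.24, 12.9, 18.9 and 13.7 in anti-miR-873-5p BDL. The miR-Ctrl mice lay close together and the anti-miR-873-5p mice lay on either side of them. Krt19 was 9.11-fold higher (log2 3.19, SE 0.30) and 11.2-fold higher (log2 3.48, SE 0.38) than without BDL in the respective groups.

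Between the BDL groups, Krt7 had a log2 fold change of 0.81 (SE 0.44) and Krt19 of 0.35 (SE 0.32) in anti-miR-873-5p BDL relative to miR-Ctrl BDL. The groups of 3 mice overlapped for both genes. The Krt7 value fell to 0.35 without anti-miR-873-5p mouse 3 and was 0.41 with all 4 mice of each group. The Krt19 value was close to its SE in the fit of all 3 mice per group and 0.0016 without that mouse.

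Krt23, a type I keratin for which less is known in liver, was at 1.72, 1.05, 1.96, 1.64 and 0.477 normalized counts without BDL. In miR-Ctrl BDL it was at 5.65, 7.04, 2.66 and 4.05, and in anti-miR-873-5p BDL at 9.69, 2.64, 9.40 and 7.71. All ligated mice were above those without BDL, by 3.59-fold in miR-Ctrl BDL (log2 1.85, SE 0.40) and 5.47-fold in anti-miR-873-5p BDL (log2 2.45, SE 0.44). The lowest mouse of each BDL group, mouse 3 of miR-Ctrl BDL and mouse 2 of anti-miR-873-5p BDL, was the one left out of the table of the BDL groups against each other.

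In that table Krt23 was the only one of the 6 keratins whose groups did not overlap, with 8.93 ± 1.07 (SD, n = 3) normalized counts after anti-miR-873-5p, 5.58 ± 1.50 (SD, n = 3) after miR-Ctrl and a log2 difference of 0.68 (SE 0.23). Of all 13746 genes tested, 11.4% did not overlap between these groups of 3. With all 4 mice of each group the log2 difference was 0.60 and the ranges overlapped, from 2.64 to 9.69 with anti-miR-873-5p and from 2.66 to 7.04 with miR-Ctrl.

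Krt20, a type I keratin of intestinal and urothelial lining cells, was barely counted. It had 1 read in 1 of 5 mice without BDL, 10, 1, 0 and 1 reads in miR-Ctrl BDL and 1, 5, 2 and 3 reads in anti-miR-873-5p BDL. It did not pass the filter on low counts in any of the 3 comparisons, and no fold change is given. A single mouse, miR-Ctrl mouse 1, held 10 of the reads of its group.

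**Figure D2:**
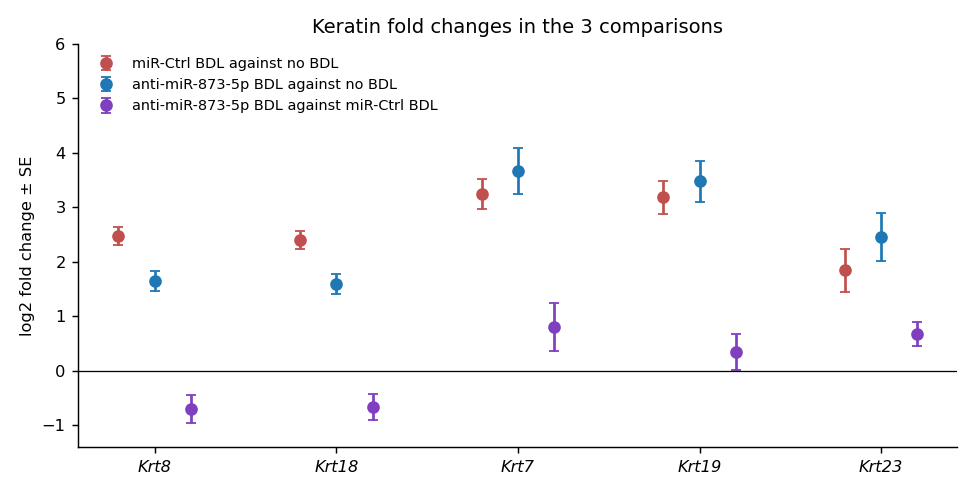
Log2 fold changes (y axis) of the 5 keratins that passed the filter on low counts (x axis) in the 3 comparisons, with bars of 1 SE from edgeR's fit. Over no BDL, Krt8 and Krt18 have smaller values in anti-miR-873-5p BDL than in miR-Ctrl BDL, and Krt7, Krt19 and Krt23 have larger ones. Between the BDL groups the first pair lies below 0 and the other 3 genes above it.

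Of the 6 keratins, 5 were past the threshold and higher in miR-Ctrl BDL, beside 19.1% of all 13072 genes tested, and their groups did not overlap, beside 14.8%. The same 5 were past it and higher in anti-miR-873-5p BDL, beside 13.1% of 13130 genes, without overlap, beside 10.1%. These shares stand as background only, since the genes were picked with this contrast in view.

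Because the pair of hepatocytes and the keratins of ducts had opposite signs between the BDL groups, their ratio within each mouse is given, which does not depend on the scaling of the libraries. Per kilobase, Krt7 was 0.220, 0.328, 0.407 and 0.294% of Krt8 in miR-Ctrl BDL mice 1 to 4 and 0.417, 0.492, 0.942 and 0.963% in anti-miR-873-5p BDL mice 1 to 4. All 4 anti-miR-873-5p mice lay above all 4 miR-Ctrl mice, the nearest at 0.417 and 0.407%. Since the ratio was formed after the opposite signs were seen, this separation follows in part from that choice and adds no evidence. How many other pairs of genes separate in this way was not counted. The Krt8 level also depends on how reads shared with Krt8-ps were counted. Without BDL the ratio was 0.146 to 0.225%.

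Krt19 was 0.804, 0.889, 0.914 and 1.43% of Krt18 in miR-Ctrl BDL and 1.35, 2.36, 2.22 and 2.37% in anti-miR-873-5p BDL. Here anti-miR-873-5p mouse 1 lay below miR-Ctrl mouse 4, and the other 3 anti-miR-873-5p mice lay above every miR-Ctrl mouse. Without BDL the share was 0.182 to 0.883%, a range that reached into that of miR-Ctrl BDL, so that in miR-Ctrl BDL the type I keratin of ducts was not set apart from no BDL when read against Krt18. Krt23 was 0.183 to 0.996% of Krt18 per kilobase without BDL, 0.206 to 0.600% in miR-Ctrl BDL and 0.487 to 1.83% in anti-miR-873-5p BDL. These ratios combine genes already described and were not tested.

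**Figure D3:**
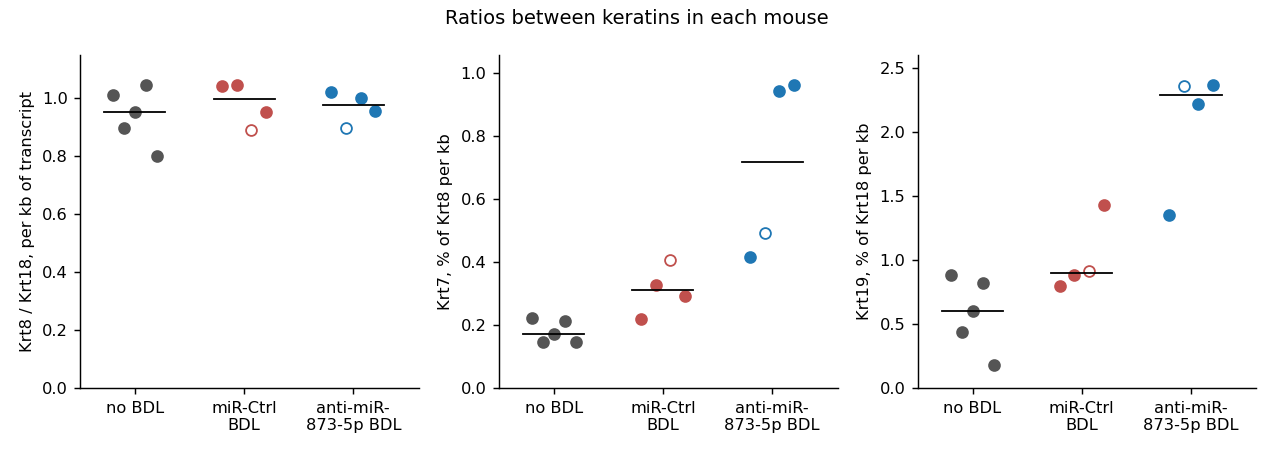
Ratio of Krt8 to Krt18 and Krt7 as a percent of Krt8 and Krt19 as a percent of Krt18 (y axes, per kilobase of transcript, from 0) in each mouse of the 3 groups (x axes). Points are mice, open points are the ligated mice that are not in the table of the BDL groups against each other, and lines are medians. The first ratio lies between 0.798 and 1.04 in all mice, and the other 2 have medians of 0.717 and 2.29% in anti-miR-873-5p BDL and of 0.311 and 0.902% in miR-Ctrl BDL.

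Per kilobase, Krt8 and Krt18 had the highest median levels in both BDL groups, with Krt8 just above Krt18 in miR-Ctrl BDL (730 and 725 normalized counts) and just below it in anti-miR-873-5p BDL (349 and 357). The order of the other 4 was the same in these groups, with Krt19 (7.10 in miR-Ctrl BDL and 8.45 in anti-miR-873-5p BDL) before Krt23 (3.10 and 5.46), Krt7 (2.08 and 2.46) and Krt20 (0.0312 and 0.0695). Without BDL, Krt23 (1.05) came before Krt19 (0.757), with overlapping ranges. The ranges of Krt8 and Krt18 overlapped in every group, as did those of Krt23 and Krt7 in both BDL groups, and Krt19 overlapped Krt23 with anti-miR-873-5p but not with miR-Ctrl. The place of Krt7 depends on its annotated length of 4094 bases, against 1437 to 1958 bases for the other keratins.

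Of the 48 other keratin genes in the tables, 26 had no read in any mouse, 19 had at most 10 reads and 3 had more. Krt80, a type II keratin of several epithelia, passed the threshold and was higher in both BDL groups. It was at 0 to 0.715 normalized counts without BDL, 1.08 to 2.45 in miR-Ctrl BDL (log2 fold change 2.77, SE 0.62, adjusted p = 0.00725 in edgeR) and 0.679 to 2.77 in anti-miR-873-5p BDL (log2 2.66, SE 0.69, adjusted p = 0.0238). The second call was lost without no BDL mouse 1, 2 or 3 or without anti-miR-873-5p mouse 3 or 4.

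Krt10, a type I keratin of the outer epidermis, fell in miR-Ctrl BDL by 0.87 on the log2 scale (SE 0.29, adjusted p = 0.0408 in edgeR), beside 16.6% of all genes called lower. It was at 1.98, 1.24, 1.96, 1.47 and 1.59 normalized counts without BDL, at 1.03, 0.656, 1.33 and 0.605 in miR-Ctrl BDL and at 1.38, 1.81, 1.39 and 1.62 in anti-miR-873-5p BDL. The call was lost without any 1 of 4 no BDL mice (1, 3, 4 and 5) or of 3 miR-Ctrl mice (1, 2 and 4). The anti-miR-873-5p mice lay above the miR-Ctrl mice without overlap, with a log2 difference of 0.94 (SE 0.31, adjusted p = 0.757 in edgeR), which did not pass the threshold. In the groups of 3 mice of that comparison, 11.4% of all genes did not overlap.

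Krt14, a type I keratin of basal cells in layered epithelia, had no read in any of the 5 mice without BDL. It had 3, 6, 23 and 58 reads in miR-Ctrl BDL and 11, 28, 2 and 16 reads in anti-miR-873-5p BDL, so that it was counted in all 8 ligated mice at uneven levels. It passed the filter on low counts in the comparison of the BDL groups alone, where its adjusted p was 0.857 in edgeR's test. Over no BDL it was past the threshold and higher in both BDL groups with DESeq2 and with all genes of at least 1 count in edgeR, as was Krt17. Trp63, which encodes a transcription factor of basal cells, had at most 4 reads in any mouse.

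In the lists of related genes that follow, counts of genes that rose stand beside 19.1% of all genes tested in miR-Ctrl BDL and 13.1% in anti-miR-873-5p BDL. Counts of genes that fell stand beside 16.6% and 8.44%, so fewer genes of any kind were called in the second comparison. These lists and those of cell type markers were chosen with earlier results of these data known. The genes named from them are mostly those with the largest changes. Their counts and adjusted p-values describe these mice and are not independent evidence. Of 18 cytolinker and desmosome genes, whose proteins tie keratin filaments to cell junctions, 14 were tested in miR-Ctrl BDL, where 6 rose and none fell, and 15 in anti-miR-873-5p BDL, where again 6 rose and none fell. The median log2 fold change was 0.37 and 0.41, against -0.01 for all genes in either comparison. Ppl (periplakin), a plakin that binds keratins, rose by a log2 fold change of 2.17 (SE 0.34, adjusted p = 0.00138 in edgeR) in miR-Ctrl BDL and of 1.98 (SE 0.29, adjusted p = 0.00264) with anti-miR-873-5p. Evpl (envoplakin), its partner, rose from at most 8 reads by 2.19 (SE 0.40, adjusted p = 0.00269) and 2.47 (SE 0.40, adjusted p = 0.00364).

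Of 16 other intermediate filament genes, 8 were tested, and 3 rose in miR-Ctrl BDL (19.1% of all genes) and 2 in anti-miR-873-5p BDL (13.1%), while none fell, with medians of 0.51 and 0.50. Vim, the filament of mesenchymal cells, rose by 2.14 (SE 0.23, adjusted p = 0.000214 in edgeR) and 1.98 (SE 0.24, adjusted p = 0.00115) on the log2 scale. Lmna, which encodes lamins A and C of the nuclear envelope, rose by 1.42 (SE 0.15, adjusted p = 0.000212) and 1.32 (SE 0.15, adjusted p = 0.00106).

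Proteins found in keratin inclusions or acting on keratins numbered 17, all tested, and 8 rose in miR-Ctrl BDL (19.1% of all genes) and 4 in anti-miR-873-5p BDL (13.1%), while none fell. The medians were 0.51 and 0.26. Tgm2, a transglutaminase that crosslinks keratins, rose by 2.27 (SE 0.31, adjusted p = 0.000721 in edgeR) and 1.48 (SE 0.36, adjusted p = 0.0186) on the log2 scale, the second call being lost without anti-miR-873-5p mouse 3 or 4. Ywhah, a protein of the 14-3-3 family whose members bind K18, rose by 1.22 (SE 0.15, adjusted p = 0.000436) and 0.86 (SE 0.18, adjusted p = 0.00965).

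Of 30 transcription factors of simple epithelia, 22 were tested in each comparison with no BDL, and in each of them 10 rose and 3 fell. The medians were 0.86 and 0.61. Elf3, an epithelial ETS factor, was at 0.511 to 1.43 normalized counts without BDL, 20.4 to 39.5 in miR-Ctrl BDL and 6.03 to 24.8 in anti-miR-873-5p BDL. Its log2 fold change was 5.31 (SE 0.30, adjusted p = 3.08e-05 in edgeR) and 4.15 (SE 0.45, adjusted p = 0.000883). Klf6, a zinc finger factor, rose by 2.61 (SE 0.22, adjusted p = 9.46e-05) and 2.42 (SE 0.29, adjusted p = 0.00115).

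The factors that fell included regulators of hepatocyte genes. Onecut1 (HNF6) fell with a log2 fold change of -2.21 (SE 0.44, adjusted p = 0.00400 in edgeR) in miR-Ctrl BDL and of -1.78 (SE 0.48, adjusted p = 0.0276) in the anti-miR-873-5p group, where 8.44% of all genes were called lower. Foxa1 had values of -0.76 (SE 0.22, adjusted p = 0.0241) and -0.62 (SE 0.20, adjusted p = 0.0478). The call of Onecut1 in anti-miR-873-5p BDL was lost without no BDL mouse 4 or anti-miR-873-5p mouse 1 or 3. It was also lost with scaling by library size alone and with mouse number as a block. That of Foxa1 in miR-Ctrl BDL was lost without no BDL mouse 1 or miR-Ctrl mouse 4. Its call in anti-miR-873-5p BDL was lost without any mouse except no BDL mouse 3. Scaling by library size alone lost both Foxa1 calls. In anti-miR-873-5p BDL so did the size factors of DESeq2 and the block. Over the alternatives the Foxa1 value reached 0.08 and 0.22. Between the BDL groups no gene of these 4 lists was past the threshold in edgeR or DESeq2, and 8 of 66 tested by edgeR had an unadjusted p under 0.05.

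Of 20 cholangiocyte markers, 16 were tested, and 12 rose in each BDL group over no BDL while none fell, with median log2 fold changes of 2.06 and 2.21. Epcam, a surface protein of duct cells, was at 0.666 to 4.01 normalized counts without BDL, 7.01 to 9.23 in miR-Ctrl BDL and 4.30 to 20.3 after BDL with anti-miR-873-5p. Epcam rose by 1.73 (SE 0.37, adjusted p = 0.00549 in edgeR) and 2.22 (SE 0.51, adjusted p = 0.0154) on the log2 scale, the second call being lost without anti-miR-873-5p mouse 3.

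Sox9, the transcription factor of ducts, rose by 2.05 (SE 0.27, adjusted p = 0.000616 in edgeR) and 1.59 (SE 0.24, adjusted p = 0.00283). Cftr, the chloride channel of ducts, rose from at most 11 reads by 2.08 (SE 0.53, adjusted p = 0.0135) and 2.75 (SE 0.72, adjusted p = 0.0247). The second call was lost without no BDL mouse 1 or 3 or anti-miR-873-5p mouse 3 or 4. Cldn4, a tight junction protein, and Mmp7, a matrix protease, had the largest fold changes of the list. They had at most 5 and 6 reads in any mouse without BDL. Their log2 values were 4.62 (SE 0.37, adjusted p = 7.86e-05) and 5.35 (SE 0.87, adjusted p = 0.00152) in miR-Ctrl BDL. Mmp7 was at 33.6 normalized counts in 1 mouse of that group against a median of 5.90, and without that mouse, miR-Ctrl mouse 3, its value was 4.10. Between the BDL groups, with 3 mice per group and without anti-miR-873-5p mouse 2, 13 of 17 tested cholangiocyte markers were higher with anti-miR-873-5p. Their median was 0.70, and none was past the threshold in edgeR (2 at an unadjusted p under 0.05). In their summed level, over 19 markers, Aqp1, a water channel that endothelial cells also make, had the largest share without BDL (median 82.1 normalized counts). The sum was highest in anti-miR-873-5p mice 3 and 4, at 288 and 286 normalized counts, the mice in which Krt7 and Krt19 were also highest. It was lowest of all ligated mice in anti-miR-873-5p mouse 2, at 173. With all mice the BDL groups overlapped, at 173 to 288 with anti-miR-873-5p and 212 to 261 with miR-Ctrl.

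Mesothelial markers were near 0 without BDL and present in every ligated mouse. Of 10 such markers 8 were tested in miR-Ctrl BDL and 7 in anti-miR-873-5p BDL, and all of these rose. Their summed level, over 9 genes, was 0.570 to 2.24 normalized counts without BDL, where Bnc1 had no read, 26.9 to 90.6 in miR-Ctrl BDL and 19.2 to 112 in anti-miR-873-5p BDL. Msln (mesothelin) and the uroplakin genes Upk3b and Upk1b had at most 1 read in any mouse without BDL, and up to 399, 252 and 79 reads in ligated mice. With genes of at most 3 reads in no BDL set to a floor of 3 reads per mouse, the median log2 fold change of the list was 3.73 and 4.13.

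The highest mesothelial sums were those of anti-miR-873-5p mouse 2 (112) and miR-Ctrl mouse 3 (90.6), the mice left out of the table of the BDL groups against each other and those with the lowest Krt23 of their groups. The lowest sum was that of anti-miR-873-5p mouse 3 (19.2), which had the highest Krt7, Krt8, Krt18 and Krt19 of its group. However, miR-Ctrl mouse 3, with a sum of 90.6, also had the highest Krt7 (12.2) and Krt18 (1185) of its group. Over the 8 ligated mice, both BDL groups pooled, the Pearson correlation of the mesothelial sum with Krt23, both as log2, was -0.79. With Krt7, Krt8, Krt18 and Krt19 it was -0.23, -0.29, -0.15 and 0.05. For the cholangiocyte sum the correlation was 0.64 with Krt23, and 0.78, 0.28, 0.22 and 0.49 with Krt7, Krt8, Krt18 and Krt19. The mesothelial and cholangiocyte sums had a correlation of -0.49 with each other. The part of mesothelial cells and of added ducts in the keratin levels was not tested.

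**Figure D4:**
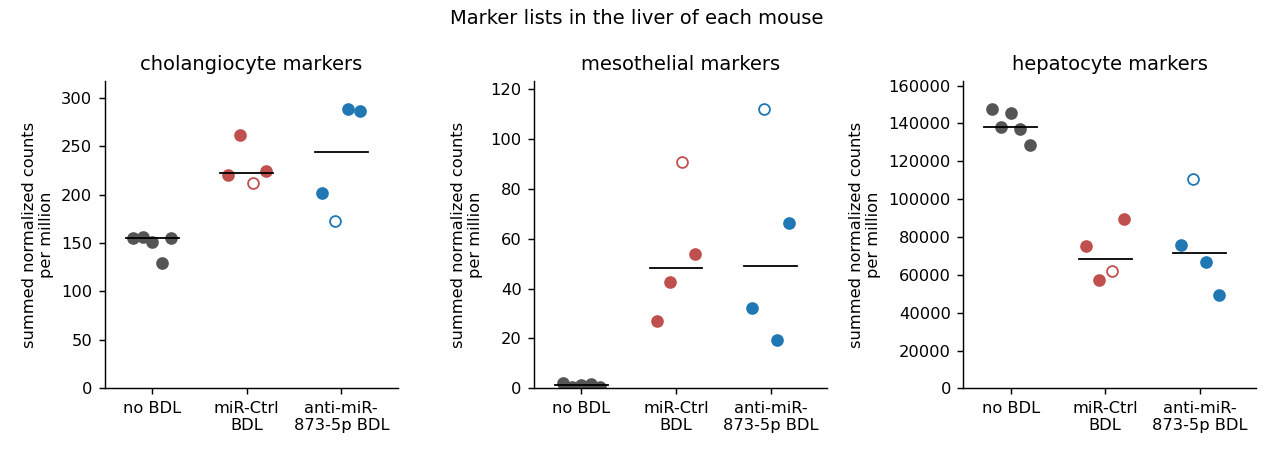
Summed normalized counts (CPM, y axes, from 0) of 19 cholangiocyte, 9 mesothelial and 13 hepatocyte markers in each mouse of the 3 groups (x axes). Points are mice, open points are the ligated mice that are not in the table of the BDL groups against each other, and lines are medians. After TMM scaling, cholangiocyte and mesothelial sums are higher and hepatocyte sums lower in the ligated mice than in those without BDL. Both open points are highest in their groups for mesothelial markers.

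Of 14 hepatocyte markers, all tested, 8 fell in miR-Ctrl BDL (16.6% of all genes) and 4 in anti-miR-873-5p BDL (8.44%) and none rose, with medians of -0.69 and -0.48. Cyp2e1, a cytochrome P450 of central hepatocytes, fell, with log2 fold changes of -3.11 (SE 0.30, adjusted p = 0.000130 in edgeR) and -2.01 (SE 0.29, adjusted p = 0.00231). Ttr (transthyretin) fell too, with values of -2.14 (SE 0.22, adjusted p = 0.000212) and -1.67 (SE 0.30, adjusted p = 0.00571). Alb had a log2 fold change of -0.80 (SE 0.34, adjusted p = 0.0931 in edgeR) and -0.82 (SE 0.40, adjusted p = 0.168), with a call by DESeq2 in both comparisons. Apoa1 had values of -0.77 (SE 0.20, adjusted p = 0.0144 in edgeR) and -0.60 (SE 0.30, adjusted p = 0.184). Its call in miR-Ctrl BDL was lost with scaling by library size alone. In anti-miR-873-5p BDL it was called without anti-miR-873-5p mouse 2. The summed level of hepatocyte markers was 128540 to 147650 normalized counts without BDL, 57079 to 89494 in miR-Ctrl BDL and 49137 to 110830 in anti-miR-873-5p BDL. Alb had the largest share of this sum without BDL (median 82124 normalized counts), followed by Serpina1a (21225). The sum rests on the TMM factors, which were 0.625 to 0.866 without BDL and 1.08 to 1.45 in the ligated mice. Over the alternative settings the log2 fold change of Alb reached 0.002 and -0.03, and that of Apoa1 0.02 and 0.18. That of Cyp2e1 reached -2.32 and -1.22, and that of Ttr -1.32 and -0.88. In the same ligated livers Krt8 and Krt18 were several times higher than without BDL.

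Markers of other epithelia were uneven in level. Cdx1, Sis and Alpi of the intestine had no read in any mouse, Cdx2 had at most 1, Vil1 at most 34 and Fabp2 up to 1221 without BDL. Lgals4, also a gene of other epithelia, was at 5.99 to 21.8 normalized counts without BDL, 3.99 to 24.2 in miR-Ctrl BDL and 7.93 to 65.3 with anti-miR-873-5p. Of the 2 intestinal genes tested over no BDL, Fabp2 and Lgals4, none was past the threshold in edgeR (0 and 1 at an unadjusted p under 0.05). The acinar genes Cpa1, Pnlip and Cel of the pancreas had no read, and of 2 tested Cela1, also a gene of other tissues, fell, with log2 fold changes of -2.11 (SE 0.34, adjusted p = 0.00138 in edgeR) and -1.95 (SE 0.34, adjusted p = 0.00530). Of 8 squamous markers 3 were tested and 2 rose in each BDL group. The third, Perp, a membrane protein of desmosomes, was at 62.1 to 113 normalized counts over all mice and was not past the threshold. Sfn (stratifin), a 14-3-3 protein that binds keratins, rose by 1.97 (SE 0.21, adjusted p = 0.000212) and 2.15 (SE 0.32, adjusted p = 0.00283). Sprr1a, a cornified envelope gene also known from injured tissue, had no read without BDL and 1.18 to 23.5 normalized counts in the ligated mice.

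Of 8 stellate cell and fibroblast markers 5 rose in each BDL group and none fell, with medians of 1.13 and 1.42. Between the BDL groups all 8 were higher with anti-miR-873-5p (median 0.35), and none was past the threshold. Col1a1 and Col3a1, the fibrillar collagens, rose by 3.59 (SE 0.39, adjusted p = 0.000236 in edgeR) and 2.63 (SE 0.43, adjusted p = 0.00166) in miR-Ctrl BDL. With anti-miR-873-5p they rose by 4.03 (adjusted p = 0.00206) and 2.98 (adjusted p = 0.00762). Acta2, the third marker, rose by 1.11 (adjusted p = 0.0412) in miR-Ctrl BDL. That call was lost without any 1 of no BDL mice 2 to 5 or miR-Ctrl mice 1, 2 and 4. In anti-miR-873-5p BDL the Acta2 value was 1.21 (adjusted p = 0.0621 in edgeR), with a call by DESeq2. Of 8 macrophage markers 7 rose in miR-Ctrl BDL (19.1% of all genes) and 3 in anti-miR-873-5p BDL (13.1%), with medians of 2.00 and 1.52. Between the BDL groups all 8 macrophage markers were lower with anti-miR-873-5p (median -0.33), and none was past the threshold. Their summed level in no BDL mouse 5 was 713 normalized counts, against 122 to 340 in the other no BDL mice. In anti-miR-873-5p BDL, Adgre1, Cd68 and Csf1r were not past the threshold, but were so without no BDL mouse 5 and with DESeq2, and the call of Marco (adjusted p = 0.0499 in edgeR) was lost without any 1 of no BDL mice 1 to 4 or anti-miR-873-5p mice 2 to 4. Itgam and Marco, surface receptors of myeloid cells and macrophages, had the largest values in miR-Ctrl BDL, at 3.67 (SE 0.66, adjusted p = 0.00253) and 3.89 (SE 0.86, adjusted p = 0.00682). Their part in the keratin levels was not tested.

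The genes whose pattern over all 13 mice was most like each keratin were found by Pearson correlation of log2(normalized count + 1) among 12097 genes with a mean of at least 1 normalized count. The ligated mice lay apart from those without BDL for every one of the 6 keratins except Krt20, while the BDL groups overlapped, and all genes share the 13 libraries. Krt8 and Krt18 shared Cttn (r = 0.989 and 0.984), which encodes the actin-binding protein cortactin, and F11r (r = 0.978 and 0.983), a tight junction protein. The third gene was Dyrk3 (r = 0.979), a kinase, for Krt8 and Nid1 (r = 0.981), a basement membrane protein, for Krt18. Cttn was at 51.0 to 54.9 normalized counts without BDL, 85.4 to 101 in miR-Ctrl BDL and 70.9 to 83.2 in anti-miR-873-5p BDL. Its BDL groups did not overlap, but it was picked for its likeness to Krt8 and Krt18, so this adds no evidence. The share of all genes without such overlap was not counted over all ligated mice.

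Krt7 and Krt19 shared Mfge8 (r = 0.979 and 0.976), a secreted glycoprotein, which was at 9.03 to 17.8 normalized counts without BDL, 108 to 182 in miR-Ctrl BDL and 79.3 to 193 in anti-miR-873-5p BDL. Krt7 was also close to Pmepa1 (r = 0.976) and to Bcam (r = 0.975), a laminin receptor, and Krt19 to Tmem119 (r = 0.980) and Epb41l4a (r = 0.978). For Krt23 the closest were Ptprs (r = 0.954), a receptor phosphatase, Heg1 (r = 0.944) and Bicc1 (r = 0.939), an RNA-binding protein of the cholangiocyte list. For Krt20, whose counts are near 0, no gene passed 0.789, the value of Usp20, followed by Polr3e (r = 0.781) and Kif16b (r = 0.780).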

How the data were processed

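Libraries were made from total liver RNA with the TruSeq v2 kit, and single-end reads of 50 nt were aligned to mm10 by TopHat. What the authors deposited are raw counts, 1 value per Entrez gene and mouse, in 3 tables. The counting program is not given in the sources used here. All value columns were used (0 left out), each assigned to its mouse by its label, and counts were checked to be whole numbers.

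Software was R (version 4.3.3), edgeR (4.0.16), which builds on limma (3.58.1), and, as an alternative, DESeq2 (1.42.0). After filterByExpr and TMM scaling, the edgeR quasi-likelihood F test was run per table and adjusted by Benjamini-Hochberg, with a threshold of 0.05. An SE was obtained as |log2 fold change| / √F. The procedure was checked on simulated data. Levels over 13 mice rest on 22246 genes whose counts do not differ between tables, all 54 keratins among them. Levels per kilobase used the longest GENCODE M21 transcript. The labels name separate mice, and the tests set differences between groups against the spread between mice.

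The keratins and all lists were chosen with earlier results of these data known. Named were the 6 keratins, other keratins past the low-count filter, in each list the called genes with the 2 largest positive and 2 largest negative changes in miR-Ctrl BDL, the first 3 markers as written, and 3 like genes per keratin. Alternatives were other scalings, DESeq2, other filters, 1 fit of all groups, mouse number as a block, all 4 mice of each BDL group, an adjusted p of 0.1 and leaving out each mouse.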

Additional observations from a re-analysis of the deposited data

Results flagged for a closer look

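Among 25 groups of 4 or 5 mice in which a keratin had a mouse with more than 3 reads, Dixon's test set 3 single mice apart from their group, and chance alone sets apart about 1 group in 20. Krt18 was at 239 normalized counts in no BDL mouse 5, above the 177 to 187 of the other mice, and at 775 in anti-miR-873-5p BDL mouse 3, above the 487 to 529 of the others. Krt20 was at 0.607 normalized counts in miR-Ctrl BDL mouse 1, which stands for 10 reads. With anti-miR-873-5p mouse 3 left out, Krt18 over no BDL had a log2 value of 1.40 in place of 1.59.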

How the results depend on the processing

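Counts of the 6 keratins past the threshold carry no weight here, since the genes were chosen from these comparisons, and the size of their fold changes is given instead. Of 230 log2 fold changes of single keratins, 220 moved by less than the spread between mice and none changed sign where the keratin was past the threshold. The 10 that moved further were those scaled by library size alone, which put the median of all genes over no BDL at 0.79 (miR-Ctrl) and 0.82 (anti-miR-873-5p) and at 0.05 between the BDL groups. Scaled so, the log2 fold change of Krt8 was 3.28 and 2.48. Genes of the 4 keratin-related lists past the threshold then numbered 54 in place of 30 (miR-Ctrl BDL) and 56 in place of 25 (anti-miR-873-5p BDL), and other keratins 1 in place of 2 and 2 in place of 1. Krt10 in anti-miR-873-5p BDL was then called higher.

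Other keratins past the threshold in miR-Ctrl BDL numbered 4 with DESeq2 (Krt10, Krt14, Krt17 and Krt80), 1 with the replicate block (Krt80), and 1 to 2 with a mouse left out. In anti-miR-873-5p BDL they numbered 3 with DESeq2 and with all genes of at least 1 count (Krt14, Krt17 and Krt80 in both), 2 with all groups in 1 fit (Krt14 and Krt80) and 0 to 1 with a mouse left out. DESeq2 and the lower filter tested more genes of few counts. Genes of the 4 lists numbered 28 to 34 and 19 to 29 with a mouse left out, and 29 and 21 with the replicate block. Same-numbered mice did not deviate together over no BDL, with correlations of -0.21 to 0.09. Of the 2 numbers shared by the BDL groups, number 1 did so in part (0.38) and number 4 did not (-0.05). The numbers were not taken as pairs. With the block Krt19 between the BDL groups was -0.04 in place of 0.35, neither past the threshold. Depth limits Krt20, Krt14, Krt10 and Krt80, with at most 10, 58, 33 and 46 reads per mouse, and Krt80 had at most 9 without BDL. It also limits the no BDL levels of Krt7, Krt19 and Krt23, with 6 to 23 reads.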
